A study of Rattus norvegicus with 6 samples.

Results

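The genes described here encode matricellular proteins, which are secreted into the extracellular matrix and act on cells there, together with fibronectin, a structural glycoprotein of the matrix. The 10 genes were Thbs1, Thbs2, Sparc, Sparcl1, Tnc, Postn, Ctgf, Cyr61, Spp1 and Fn1, and each matched 1 of the 19616 genes in the expression table by its symbol. The table places Thbs2 and Ctgf on chromosome 1, Postn and Cyr61 on chromosome 2, Sparcl1 and Spp1 on chromosome 14, and Thbs1, Tnc, Fn1 and Sparc on chromosomes 3, 5, 9 and 10. Livers of male Sprague-Dawley rats were sequenced as total RNA depleted of ribosomal RNA, with 1 library per rat. The FL group (rats FL2, FL5 and FL12) had received carbon tetrachloride (CCl4), a liver toxin, mixed with olive oil (2 mL/kg) in 2 intraperitoneal injections per week over 5 weeks. The CL group (rats CL5, CL6 and CL7) had received the same volume of olive oil alone. The age of the rats was not given in the sources used here. Expression was given as FPKM, fragments scaled to the length of the transcript and to the mapped fragments of the library, a level per length that can be set side by side between genes.

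Most matricellular proteins bind integrins, syndecans or other receptors of the cell surface, and several of them also bind growth factors or collagen fibrils. In the healthy adult liver many of these genes are weakly expressed, whereas fibronectin is made by hepatocytes in large amounts and circulates in plasma. During liver injury, hepatic stellate cells that turn into myofibroblasts, macrophages and bile duct cells are known sources of matricellular proteins.

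In the FL group, 7 of the 10 genes were upregulated, with limma's adjusted p under 0.05 and a change of at least 2-fold, and 0 were downregulated. Spp1 and Postn had the largest changes of the 10, Thbs2, Sparc, Sparcl1, Ctgf and Cyr61 rose by 2.29 to 2.81-fold, and Fn1, Thbs1 and Tnc did not pass. Over all 14864 genes tested, 9.29% were upregulated and 0.935% were downregulated by the same limits. At an unadjusted p under 0.05, 9 of the 10 genes were higher and 0 were lower, beside 31.5% higher and 4.04% lower among all genes tested. In 7 of the 10 genes every FL rat lay above every CL rat, beside 35.7% of all genes tested. The median log2 fold change was 1.40 for the 10 genes and 0.29 for all genes tested. That median of all genes moved to 0.08 with median scaling and to −0.04 with quantile normalization, and the 10 genes lay 1.15 and 0.99 above it there, beside 1.11 without scaling. The direction was upward under each scaling in 9 of the 10 genes, and that of Fn1 turned with median scaling. Of all genes called, 90.9% were upregulated without scaling and 66.2% with quantile normalization. The number of upregulated genes among the 10 fell to 4 without CL5, CL6 or FL12 and to 3 without CL7 or FL5, and was 8 without FL2. Over all genes, 1381 became 935, 1001 and 954 without CL5, CL6 and FL12. That number was 741 and 745 without CL7 and FL5, and 1831 without FL2. Among the 10 genes, 2 were upregulated with no filter on low values and 4 with quantile normalization, beside 846 and 453 over all genes. A change in the number of cells of a type and a change in RNA per cell cannot be told apart in these whole-liver samples.

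**Figure D1:**
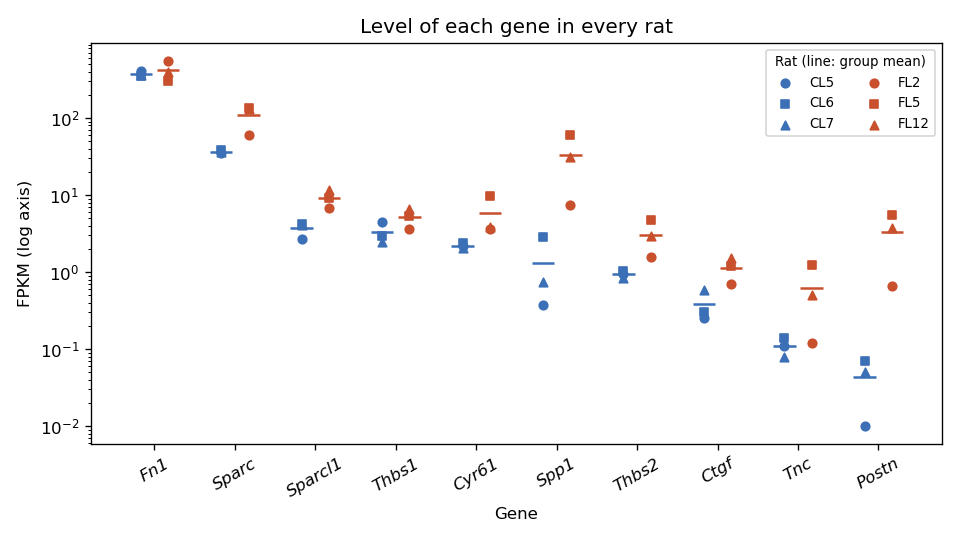
FPKM of the 10 genes (log axis) in each rat, with CL rats in blue, FL rats in orange and a line at the mean of each group of 3. FL2 is the lowest FL rat for 9 of the 10 genes, and Fn1 lies between 306.61 and 546.39 FPKM in all 6 rats.

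Fn1 was the most abundant of the 10 genes in both groups. In the CL group the order of mean levels was Fn1, Sparc, Sparcl1, Thbs1, Cyr61, Spp1, Thbs2, Ctgf, Tnc and Postn, from 376 down to 0.0433 FPKM. The ranges of neighbours over the 3 rats overlapped for Sparcl1 and Thbs1, for Cyr61 and Spp1, and for Spp1 and Thbs2. In the FL group the order was Fn1, Sparc, Spp1, Sparcl1, Cyr61, Thbs1, Postn, Thbs2, Ctgf and Tnc, from 415 down to 0.62 FPKM. There, the ranges of neighbours were separate only for Fn1 and Sparc and for Thbs2 and Ctgf. Among all 19616 genes, Spp1 moved from place 9278 by mean level in the CL group to place 976 in the FL group, and Sparc from place 826 to place 284. Postn moved from place 15352 to place 7351, and Fn1 held place 87 and place 74.

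Fn1 made up most of the sum of the 10 genes in the CL group. The other 9 genes together came to 46.0 in CL5, 52.0 in CL6 and 46.8 in CL7, against 85.0 in FL2, 231 in FL5 and 195 FPKM in FL12. Every FL rat was above every CL rat, and FL2 was the lowest of the FL rats. Fn1 made up 89.9%, 87.3% and 88.7% of the sum of the 10 genes in CL5, CL6 and CL7, and 86.5%, 57.1% and 66.8% in FL2, FL5 and FL12. The share in FL2 was thus near those of the CL rats, while FL5 and FL12 were lower.

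Spp1 encodes osteopontin, a secreted phosphoprotein that binds integrins and CD44 and is made by macrophages and bile duct cells, among others. Its level was 0.37 in CL5, 2.81 in CL6 and 0.74 in CL7, against 7.34 in FL2, 60.6 in FL5 and 31.1 FPKM in FL12. The groups did not overlap, although each was widely spread, with an 8.25-fold range among the FL rats and a 7.59-fold range among the CL rats. CL6 was the highest CL rat and FL5 the highest FL rat. The mean was 1.31 ± 1.32 FPKM for the CL rats and 33.0 ± 26.7 FPKM for the FL rats (SD, n = 3). The log2 fold change was 4.53 (SE 0.85, limma adjusted p = 0.0119), the ninth largest increase among all genes tested. The adjusted p was 0.0508 without CL7 and 0.0611 with no filter, within a range of 0.00565 to 0.0611 over the alternatives.

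Postn encodes periostin, an integrin ligand that takes part in the assembly of collagen fibrils and is made by fibroblasts. Its level was 0.01 in CL5, 0.07 in CL6 and 0.05 in CL7, against 0.66 in FL2, 5.44 in FL5 and 3.72 FPKM in FL12. All CL rats were close to 0, at levels that may rest on few reads. The FL rats lay above them without overlap, FL2 being 8.24-fold below FL5. The log2 fold change was 4.16 (SE 0.68, limma adjusted p = 0.008), from 0.0433 ± 0.0306 to 3.27 ± 2.42 FPKM. Because 0.1 was added to each FPKM before the logarithm, this value understates the ratio of the means and depends on the constant: it was 1.82 with a constant of 1 and 5.70 with 0.01. The mean of Postn over the 6 rats passed the filters on low values, at 0.1 and at 1 FPKM, only through the FL rats, so its call there is no sign of stability. With that limit, Postn and Sparcl1 were the only genes of the 10 whose calls were kept under all 14 alternatives.

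Sparc and Sparcl1 encode related collagen-binding glycoproteins, SPARC (osteonectin) and its relative hevin. The level of Sparc was 35.1 in CL5, 38.1 in CL6 and 35.8 in CL7, against 60.6 in FL2, 133 in FL5 and 133 FPKM in FL12. The CL rats differed by at most 1.09-fold, and all FL rats were above them, with FL5 2.20-fold above FL2. Sparc rose by 1.49 on the log2 scale (SE 0.29, limma adjusted p = 0.0131), from 36.3 ± 1.58 to 109 ± 41.8 FPKM (SD, n = 3). The adjusted p was 0.0523 without CL7, 0.0505 without FL5 and 0.0588 with no filter, within 0.000551 to 0.0588 over the alternatives. The level of Sparcl1 was 2.69, 4.22 and 4.13 FPKM in the CL rats in the same order, and 6.86, 9.18 and 11.7 FPKM in the FL rats. Again the groups were apart, and here FL12 was the highest FL rat. Sparcl1 rose by 1.30 (SE 0.24, limma adjusted p = 0.0114).

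Thbs1 and Thbs2 encode thrombospondins, which bind CD47 and CD36 and restrain the growth of blood vessels; thrombospondin-1 is also known to activate latent TGF-beta. The level of Thbs1 was 4.43 in CL5, 2.93 in CL6 and 2.44 in CL7, against 3.57 in FL2, 5.41 in FL5 and 6.52 FPKM in FL12. The groups overlapped, since FL2 was below CL5. The log2 fold change of 0.65 (SE 0.28) did not pass (limma adjusted p = 0.137), and it was 0.36 above the median of all genes. The level of Thbs2 was 0.93, 1.04 and 0.83 FPKM in the CL rats, and 1.55, 4.69 and 2.95 FPKM in the FL rats. All FL rats were above all CL rats, and FL5 was 3.03-fold above FL2. Thbs2 rose by 1.49 (SE 0.36, limma adjusted p = 0.027). This call was lost in 9 of 14 alternatives: without CL5, CL6, CL7, FL5 or FL12, with a pseudocount of 1 (just below 2-fold), quantile normalization (log2 fold change 1.04, adjusted p = 0.0919), with no filter (adjusted p = 0.0861) and without trend. Its adjusted p ranged from 0.00469 to 0.0958 over the alternatives. Thbs2 passed the filter at 1 FPKM only through the FL rats, so its call there is no sign of stability.

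Ctgf and Cyr61 encode CCN proteins, which bind integrins and are textbook targets of the YAP/TAZ coactivators of the Hippo pathway; Ctgf is also induced by TGF-beta. The level of Ctgf was 0.25 in CL5, 0.30 in CL6 and 0.59 in CL7, against 0.70 in FL2, 1.21 in FL5 and 1.5 FPKM in FL12. The groups did not overlap, but CL7 came close to FL2. Ctgf rose by 1.37 (SE 0.37, limma adjusted p = 0.0388). The level of Cyr61 was 2.15, 2.37 and 2.08 FPKM in the CL rats, and 3.66, 9.84 and 3.81 FPKM in the FL rats. All FL rats were above the narrow range of the CL rats, and FL5 was 2.69-fold above FL2. Cyr61 rose by 1.20 (SE 0.35, limma adjusted p = 0.049), close to the limit. Without FL5 its log2 fold change was 0.74, below 2-fold. The Ctgf call was lost in 9 of 13 alternatives: without CL5, CL6, FL5 or FL12 (log2 fold changes of 1.16 to 1.30), with median scaling (1.18), quantile normalization (0.79) or a pseudocount of 1 (0.62), with no filter and without trend. The Cyr61 call was lost in 11 of 14: without any single rat other than FL2, with median scaling (0.98), quantile normalization (0.84) or a pseudocount of 1 (0.96), with no filter, without trend and with a robust prior. Over the alternatives the adjusted p ranged from 0.0201 to 0.185 for Ctgf and from 0.0335 to 0.18 for Cyr61.

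Tnc encodes tenascin-C, a large matrix glycoprotein of healing wounds. Its level was 0.11 in CL5, 0.14 in CL6 and 0.08 in CL7, against 0.12 in FL2, 1.23 in FL5 and 0.51 FPKM in FL12. FL2 lay within the range of the CL rats, so the groups overlapped, whereas FL5 and FL12 were above all CL rats. The log2 fold change was 1.43 (SE 0.62, limma adjusted p = 0.139). Without FL2 it was 2.11 and passed, with an adjusted p of 0.0173, in a range of 0.0173 to 0.364 over the alternatives.

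Fn1 encodes fibronectin, which binds integrins, collagen and heparin. Its level was 408 in CL5, 357 in CL6 and 365 in CL7, against 546 in FL2, 307 in FL5 and 391 FPKM in FL12. The FL group held both the highest and the lowest rat, and unlike the other 9 genes Fn1 had its highest level in FL2. The means were 376 ± 27.3 and 415 ± 122 FPKM (SD, n = 3), and the log2 fold change was 0.10 with a 95% interval of −0.44 to 0.64 (limma adjusted p = 0.782). It was −0.12 with median scaling and −0.12 without FL2. The table gives 1 value per gene, so the plasma and cellular forms of fibronectin, which differ by splicing, were not separated.

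**Figure D2:**
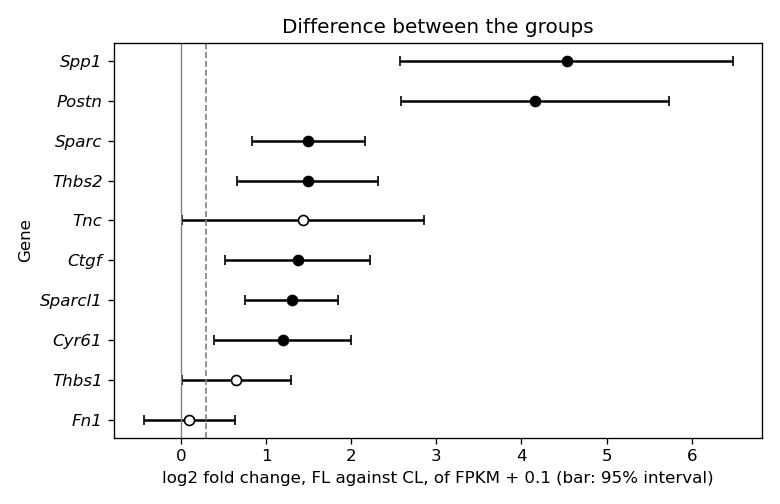
Log2 fold change of each gene, FL against CL, on log2(FPKM + 0.1), with limma's 95% interval as a bar. Filled points passed the limits (7 genes) and open points did not (Tnc, Thbs1 and Fn1), the solid line marks 0, and the broken line marks the median of all genes tested, 0.29; the sign of Fn1 turns with median scaling.

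The order of the FL rats was similar over these genes. FL2 was the lowest FL rat for 9 of the 10 genes, and FL5 was the highest for 6 of them. FL2 was also the lowest FL rat for 53.8% of all genes tested and for 68.4% of the 1381 upregulated genes, and FL5 was the highest for 36.4% and 46% of them. Of the 11 stellate cell and myofibroblast markers tested, 11 were lowest in FL2.

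Within the families, the ratio of one gene to its relative was compared between the groups in each rat, which removes nearly all effect of scaling between rats. The log2 ratio of Thbs2 to Thbs1 was −2.14, −1.41 and −1.45 in CL5, CL6 and CL7, and −1.15, −0.20 and −1.12 in FL2, FL5 and FL12. All FL rats were above all CL rats. The difference was 0.84 (exact permutation test over 20 divisions, 2-sided, p = 0.1, adjusted over 3 pairs to 0.3), and 0.1 is the smallest p that 3 against 3 rats allow. The log2 ratio of Sparc to Sparcl1 averaged 3.29 ± 0.31 in the CL group and 3.49 ± 0.36 in the FL group, a difference of 0.19 (exact permutation p = 0.6, adjusted p = 0.7). The log2 ratio of Cyr61 to Ctgf averaged 2.32 ± 0.58 and 2.15 ± 0.82, a difference of −0.18 (exact permutation p = 0.7, adjusted p = 0.7). In the latter 2 pairs the groups overlapped. The sign of the Cyr61 to Ctgf difference turned without CL5 (0.01) and without FL12 (0.25).

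Other matricellular genes gave a mixed picture. Of 21 genes listed, 18 were in the table and 13 were tested, of which 4 rose, 1 fell and 8 did not pass, beside 9.29% upregulated and 0.935% downregulated over all genes; their median log2 fold change was 0.67, beside 0.29 for all genes. Mgp, matrix Gla protein, an inhibitor of calcification, was at 2.17, 4.12 and 2.88 in the CL rats, against 16.2 in FL2, 20.7 in FL5 and 49.5 FPKM in FL12, and rose by 3.07 (SE 0.40, limma adjusted p = 0.00465). Smoc2, a relative of SPARC, rose by 2.29, and Thbs4, another thrombospondin, by 1.79 from levels of 0.15 to 0.25 FPKM. Fstl1, named after its values were seen as the remaining upregulated gene, rose by 1.18. The Thbs4 call was lost without CL6, CL7, FL5 or FL12 (adjusted p of 0.0524 to 0.0638) and with a pseudocount of 1 (log2 fold change 0.71), and that of Fstl1 without any rat but FL2 (0.0536 to 0.0628) and with median scaling. Both were lost with no filter and with quantile normalization. Ecm1, a secreted matrix protein, went the other way. It was at 49.3, 66.3 and 53.1 in the CL rats, against 29.2 in FL2, 22.9 in FL5 and 14.8 FPKM in FL12, without overlap, and fell by 1.37 on the log2 scale (SE 0.24, limma adjusted p = 0.0101). Vtn, the plasma protein vitronectin, was at 1112, 1354 and 1231 FPKM in the CL rats and at 1506, 780 and 990 FPKM in the FL rats (log2 fold change −0.22, adjusted p = 0.626). Like Fn1, it had its highest level in FL2 and its lowest in FL5. Tgfbi had a log2 fold change of −0.17 and Smoc1 of 0.01, and the sign of Smoc1 turned with median scaling and quantile normalization and without CL7 or FL2.

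Among 18 genes for cell surface receptors, 17 were tested, of which 4 rose (9.29% over all genes) and 0 fell; at an unadjusted p under 0.05 alone, 10 were higher and 1 was lower (31.5% and 4.04% over all genes). Their median log2 fold change was 0.51. Cd36 and Itgb6, named for CL means under 0.1 FPKM, passed the filter on low values only through the FL rats. Both are among the 10 and are thus no support for that count. Itga8, the alpha-8 integrin chain, was at 0.53 in CL5, 0.43 in CL6 and 0.51 in CL7, against 2.62 in FL2, 6.03 in FL5 and 8.05 FPKM in FL12. The groups were far apart, and the log2 fold change was 3.13 (SE 0.37, limma adjusted p = 0.00371). Cd44, a receptor for osteopontin and hyaluronan, was at 0.55, 1.07 and 0.77 FPKM in the CL rats and at 2.93, 4.79 and 4.49 FPKM in the FL rats, and rose by 2.23 (SE 0.28, adjusted p = 0.00414). The integrin chains Itga4 and Itga9, which also bind osteopontin, rose by 1.60 and 1.04, and Itga9 was below 2-fold without FL12 (0.90), with median scaling (0.81), with quantile normalization (0.76) and with a pseudocount of 1 (0.91). Sdc4, the heparan sulfate proteoglycan syndecan-4, was at 83.5, 94.2 and 111 FPKM in the CL rats and at 48.7, 58.0 and 59.1 FPKM in the FL rats. Its log2 fold change of −0.80 (limma adjusted p = 0.0119) was below the limit of 2-fold, and reached it with median scaling. Sdc2 and Lrp1, the most abundant of the 17 beside Sdc4, had log2 fold changes of −0.20 and 0.46 (adjusted p = 0.372 and 0.0704).

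Of 20 further YAP/TAZ target genes, 19 were tested, of which 2 rose and 0 fell, a share near the 9.29% upregulated among all genes. At an unadjusted p under 0.05, 10 were higher and 0 lower (31.5% and 4.04% over all genes), and the median log2 fold change was 0.48, beside 0.29 for all genes. Fjx1, named for its CL mean of 0.0267 FPKM, passed the filter on low values only through the FL rats. It is among the 10 and is thus no support for that count. Myof, myoferlin, was at 0.61, 0.56 and 0.46 in the CL rats, against 1.71 in FL2, 3.57 in FL5 and 2.95 FPKM in FL12, and rose by 2.09 (SE 0.29, limma adjusted p = 0.0049). F3, the coagulation initiator tissue factor, rose by 1.74 from 0.09 to 0.31 FPKM in the CL rats to 0.49 to 1.35 FPKM in the FL rats; this call was lost without CL6, CL7, FL5 or FL12 (adjusted p of 0.0851 to 0.0924), with a pseudocount of 1 (log2 fold change 0.65), with no filter and with median scaling or quantile normalization. The most abundant genes of the list did not pass. Igfbp3 had a log2 fold change of 0.13 and Nt5e of 0.01, both negative with median scaling. Ccdc80 was at 15.1 to 21.6 FPKM in the CL rats and 28.0 to 42.4 FPKM in the FL rats, and its log2 fold change of 0.97 (adjusted p = 0.0171) was just below 2-fold, above it without CL6, CL7 or FL2 (1.07, 1.02 and 1.17), where it passed without CL6 or FL2 but not without CL7 (adjusted p = 0.0535, in a range of 0.00683 to 0.0656 over the alternatives).

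Of 8 TGF-beta ligands and target genes, 8 were tested, of which 6 rose and 0 fell, beside 9.29% and 0.935% over all genes. At an unadjusted p under 0.05, 7 were higher and 0 lower (31.5% and 4.04% over all genes), and the median log2 fold change was 1.66. Tgfb3, a ligand, was at 0.91 in CL5, 1.18 in CL6 and 0.80 in CL7, against 4.25 in FL2, 8.10 in FL5 and 10.9 FPKM in FL12, and rose by 2.80 (SE 0.33, limma adjusted p = 0.00339). Ltbp2 encodes a matrix protein of the family named latent TGF-beta binding proteins. Its level was 0.31, 0.50 and 0.41 FPKM in the CL rats, and 1.61, 6.39 and 4.51 FPKM in the FL rats. Ltbp2 rose by 2.89 (SE 0.46, limma adjusted p = 0.00703). In both genes the groups were apart and FL2 was the lowest FL rat. Pmepa1, an inhibitor of the pathway, rose by 1.77, a call that was lost without CL5, CL7, FL5 or FL12 (adjusted p of 0.0625 to 0.093), with a pseudocount of 1 (log2 fold change 0.72), with no filter and with median scaling or quantile normalization. Tgfb1, the main ligand, outside the rule for named genes and chosen after its values were seen, rose by 1.18 from 3.37 to 4.01 FPKM in the CL rats to 6.72 to 10.8 FPKM in the FL rats, and was below 2-fold with median scaling (0.96) and quantile normalization (0.89). The inhibitors Smad7 and Skil had log2 fold changes of 0.61 (adjusted p = 0.037, below 2-fold) and 0.36 (adjusted p = 0.311).

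Immediate early genes, which respond within minutes to stress and to handling of tissue, differed in their spread between rats. Of 12 genes listed, 9 were tested with limma, 0 were called in either direction and 2 were higher and 0 lower at an unadjusted p under 0.05 (31.5% and 4.04% over all genes). Dusp1 was at 5.21 in CL5, 45.7 in CL6 and 43.1 in CL7, against 36.4 in FL2, 16.8 in FL5 and 4.71 FPKM in FL12. Zfp36 was at 9.52, 24.0 and 18.8 FPKM in the CL rats and at 21.4, 44.5 and 10.03 FPKM in the FL rats. Junb was at 7.66, 11.3 and 8.38 FPKM in the CL rats and at 19.7, 33.6 and 9.15 FPKM in the FL rats. The highest level of Junb and Zfp36 was in FL5, the rat with the highest level of Cyr61. Without FL12, Junb had a log2 fold change of 1.51 and passed (adjusted p = 0.0211, in a range of 0.0211 to 0.295 over the alternatives). The part of these genes in the level of Cyr61 was not tested.

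Marker genes of liver cell types were read beside the 10 genes, as numbers passing and as sums per rat. The labelled tissue was checked by the hepatocyte markers. Alb, albumin, was the most abundant of the 10 listed hepatocyte genes, at 24149 to 33392 FPKM in all rats, and of 11 rows (G6pc has 2) limma called 0, with 2 higher and 0 lower at an unadjusted p under 0.05 (31.5% and 4.04% over all genes). The log2 fold change was positive in 8 rows and negative in 3. Alb and, named after their values were seen, Ttr and Hnf4a were lower in every FL rat than in every CL rat (3 of 11, beside 4.78% of all genes tested). Apoa1 and Tf, also named after their values were seen, were higher in every FL rat (2 of 11, beside 35.7%). The log2 fold change of Alb was −0.38 and turned positive with quantile normalization. Its SE of 0.98 followed from the prior variance of limma at that level, and the adjusted p was 0.804, and 0.0789 without trend, in a range of 0.0789 to 1 over the alternatives. The sum of the hepatocyte genes was 50851 ± 1477 FPKM for the CL rats and 44252 ± 732 FPKM for the FL rats (SD, n = 3). Alb made up the larger part of it, and without Alb the sum was 19122 in CL5, 18262 in CL6 and 18354 in CL7, against 20855 in FL2, 19158 in FL5 and 18332 FPKM in FL12, so that the groups overlapped.

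Of 11 stellate cell and myofibroblast markers tested with limma, 6 rose, 0 fell and 5 did not pass, beside 9.29% upregulated and 0.935% downregulated over all genes. The log2 fold change was positive in 10 of them and negative in 1. At an unadjusted p under 0.05, 9 were higher and 0 lower, beside 31.5% and 4.04%. Their sum was 91.3 in CL5, 96.8 in CL6 and 89.4 in CL7, against 214 in FL2, 563 in FL5 and 515 FPKM in FL12. All FL rats were above all CL rats, with FL2 the lowest, as for Sparc, Postn and Spp1. Col3a1, a fibrillar collagen, was the most abundant gene of the list in both groups, at 46.5 to 51.8 FPKM and 140 to 342 FPKM, and rose by 2.37. Col1a1 rose by 4.24, from 2.12, 3.77 and 2.12 FPKM to 17.0, 101 and 73.7 FPKM, and Lum, a collagen-binding proteoglycan, by 2.44. The Lum call was lost without CL6, CL7, FL5 or FL12 (adjusted p of 0.0549 to 0.0703), with no filter and with quantile normalization. Col1a2, usually made with Col1a1, was listed at 0.01 to 0.18 FPKM and was not tested.

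Of 9 macrophage markers, 6 rose and 0 fell by limma, beside 9.29% and 0.935% over all genes, and 8 were higher and 0 lower at an unadjusted p under 0.05, beside 31.5% and 4.04%. Their sum was 100.2, 97.4 and 97.9 in the CL rats, against 308 in FL2, 370 in FL5 and 251 FPKM in FL12. In this sum FL12, not FL2, was the lowest FL rat. By single genes, FL2 was the lowest for 3 of the 9 markers, Gpnmb, Trem2 and Lyz2, and FL12 for the others. Clec4f, a marker of resident Kupffer cells, was the most abundant gene in the CL group, at 49.9, 43.2 and 48.4 FPKM, and was at 66.6, 57.4 and 26.3 FPKM in the FL rats. Its log2 fold change was −0.02, with a sign that turned without CL5, CL7 or FL12. Gpnmb, a glycoprotein of lipid-laden macrophages, was the most abundant in the FL group and rose by 4.54, from 3.65 to 4.25 FPKM to 64.7 to 144 FPKM. Trem2 rose by 4.46 and Lyz2, lysozyme, by 3.13. Trem2 was at 0.06, 0.12 and 0.07 FPKM in the CL rats and passed the filters on low values only through the FL rats. Its call there is thus no sign of stability. The size of its change depends on the constant added, at 2.19 with a pseudocount of 1 and 5.43 with 0.01.

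Of 7 cholangiocyte markers, limma called 0, with 1 higher and 0 lower at an unadjusted p under 0.05 (31.5% and 4.04% over all genes). Their sum was 5.73 in CL5, 8.10 in CL6 and 5.86 in CL7, against 5.72 in FL2, 8.80 in FL5 and 12.7 FPKM in FL12, so the groups overlapped. Epcam was the most abundant, at 4.22 to 7.80 FPKM over all rats. Cftr, the 1 marker higher at an unadjusted p under 0.05, had a CL mean of 0.0867 FPKM. It passed the filter on low values only through the FL rats, so it is no support for that count. Of 7 endothelial markers tested, 1 passed (9.29% of all genes were upregulated): Vwf, von Willebrand factor, rose by 1.05, a call that was lost without any rat but FL2 (adjusted p of 0.0651 to 0.0797), with a pseudocount of 1 (log2 fold change 0.85), with no filter, without trend and with median scaling or quantile normalization. The endothelial sum was 79.4, 78.3 and 70.4 FPKM in the CL rats and 96.9, 83.5 and 90.1 FPKM in the FL rats, with Kdr the most abundant in the CL group (log2 fold change −0.21) and Lyve1 in the FL group (0.30).

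The lists for blood cells, muscle and mesothelium had low sums. Of the markers tested, 1 of 2 platelet, 1 of 6 lymphocyte and 1 of 4 smooth muscle genes rose; with 9.29% of all genes upregulated, single calls in lists this short are not set apart from that share. Platelet markers summed to 2.63 to 4.12 FPKM in the CL rats and 5.07 to 7.68 FPKM in the FL rats; Pf4, a chemokine of platelet granules, rose by 1.73, Itga2b had a log2 fold change of 0.37, and Ppbp, Gp1ba, Gp9 and Gp6 were at or below 0.08 FPKM in every rat. Lymphocyte markers summed to 1.52 to 2.62 FPKM and 2.72 to 4.72 FPKM; Cd2 rose by 1.39, and was not called without CL5, CL6 or FL5 (adjusted p of 0.0651 to 0.0745), with a pseudocount of 1 (0.52), with no filter and with median scaling or quantile normalization. The most abundant lymphocyte genes, Nkg7 in the CL group and Cd79a in the FL group, had log2 fold changes of 0.33 and 0.96, with Cd79a passing without FL12 at 1.26 and the sign of Nkg7 turning without CL6. Smooth muscle markers summed to 7.75 to 8.70 FPKM and 8 to 11.4 FPKM; Lmod1 rose by 1.28, a call lost without any rat but FL2 (adjusted p of 0.11 to 0.149), with a pseudocount of 1 (0.42), with no filter and with median scaling or quantile normalization, and Smtn, the most abundant, had a log2 fold change of 0.02, negative with median scaling. Of 3 mesothelial markers limma called 0, with 1 higher and 0 lower at an unadjusted p under 0.05 (31.5% and 4.04% over all genes). The higher one, Wt1, had a CL mean of 0.09 FPKM and passed the filter on low values only through the FL rats. Msln was the most abundant, at 0.40 to 2.31 FPKM. Its log2 fold change of −1.01 (limma adjusted p = 0.196) was −1.67 and passed without FL12. The part of the cell types in the levels of the 10 genes was not tested.

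The promoters of the 10 genes were read for letters known from the binding motifs of factors downstream of the Hippo, TGF-beta and stress pathways. RefSeq promoter sequences of 300 bases around the gene start (rat build GRCr8) matched 8 of the 10 genes, with Ctgf under its symbol Ccn2 and Cyr61 under Ccn1; Thbs2 and Fn1 had no entry. The letters GGAATG of TEAD factors, the DNA-binding partners of YAP/TAZ, occurred on either strand in 4 of the 8 promoters (Thbs1, Sparc, Ctgf and Cyr61) and in 14.2% of all 33469 promoters of that length. Ctgf held them 3 times, and 32 of the 33469 promoters (0.0956%) held them 3 or more times. The letters CAGAC of SMAD factors occurred in 7 of the 8 and in 50.1% of all promoters, and TGANTCA of AP-1 in 0 of the 8 and in 7.33%. No match of one of these motifs overlapped a match of another in the 8 promoters. A match is a description of these letters and not a site shown to be bound. The promoters of Ctgf and Cyr61, shown because both genes rose and are textbook targets of YAP/TAZ, are on the minus strand, at chr1:22624565-22624864 and chr2:237225640-237225939, and are printed 5′ to 3′ with GGAATG, or CATTCC where it lies on the opposite strand, in capitals.
Ctgf: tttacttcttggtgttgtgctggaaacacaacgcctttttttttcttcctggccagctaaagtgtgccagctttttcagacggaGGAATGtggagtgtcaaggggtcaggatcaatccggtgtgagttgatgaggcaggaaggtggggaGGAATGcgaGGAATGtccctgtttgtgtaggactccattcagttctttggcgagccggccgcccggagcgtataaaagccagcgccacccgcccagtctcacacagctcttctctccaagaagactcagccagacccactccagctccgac
Cyr61: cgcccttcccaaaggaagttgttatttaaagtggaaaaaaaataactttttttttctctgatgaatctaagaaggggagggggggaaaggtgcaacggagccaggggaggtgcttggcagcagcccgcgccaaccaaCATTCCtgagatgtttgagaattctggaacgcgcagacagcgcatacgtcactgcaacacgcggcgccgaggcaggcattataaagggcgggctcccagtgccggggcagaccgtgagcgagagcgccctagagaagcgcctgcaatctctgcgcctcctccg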

How the data were processed

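Liver RNA of 3 FL and 3 CL rats was compared, and the rats were assigned to groups by their labels. Reads had been trimmed (FASTX-Toolkit) and mapped with TopHat2 by the authors, who deposited FPKM per gene; the genome named in the submitters' processing notes is GRCh38, although the gene identifiers are those of the rat, so no coordinates of that build are given. The deposited table held 2 further columns of values that no sample's label names, and they were not used.

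The 14864 genes whose FPKM averaged 0.1 or more were tested on log2(FPKM + 0.1) with limma 3.58.1 (R 4.3.3), with a prior variance following the mean and Benjamini-Hochberg adjustment over all genes tested. A gene was called at an adjusted p under 0.05 and a change of at least 2-fold, and fold changes are on that scale, which understates those of low genes. The fit was tested on simulated data. Ratios within a family were compared with exact permutation tests. Tables were made with Python 3.11.15, pandas 2.3.3 and scipy 1.17.1. Total depths were not used here. The commonest value above 0 of the U6 genes, taken as that of 1 read, was 0.21 FPKM in CL5 and 0.25 to 0.32 FPKM in the others, so CL5 was the deepest library, and no counting interval was attached. Between 0.99% and 2.87% of genes above 0 had identical values in a pair of rats, so no library was a duplicate.

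The 10 genes and the lists were chosen with earlier results of these data known. The genes named were the 10 genes, per pathway list at most 4 called genes by size of change and 3 others by level, per marker list the most abundant and at most 3 called genes, and for each of the 10 genes the 3 with the most similar pattern; 1 gene that this rule names is not reported here. Alternatives were other pseudocounts, filters, scalings and limma settings, no limit on the fold change, and leaving out each rat.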

Additional observations from a re-analysis of the deposited data

How the results depend on the processing

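The number of upregulated genes among the 10 was 7. It became 4 with a pseudocount of 1, with quantile normalization and with limma without trend, and 5 with median scaling. It was 6 with a mean FPKM of at least 1 and with a robust prior. With no filter on low values it was 2, and 3 to 8 when single rats were left out. Under each alternative 0 were downregulated. Ctgf and Tnc were not tested with a mean FPKM of at least 1. Genes with a CL mean under 1 FPKM, among them Postn and Thbs2, could pass that filter only through the FL rats. Over all genes, 1381 were upregulated and 139 downregulated. With a pseudocount of 1 these were 462 and 72, with no filter 846 and 78, with quantile normalization 453 and 231, and with no limit on the fold change 2518 and 288. The number upregulated was 854 with a mean FPKM of at least 1 and 824 with median scaling. It was 1313 with limma without trend and 1373 with a robust prior. Leaving out single rats gave 741 to 1831 upregulated and 81 to 160 downregulated genes, from fits with fewer samples. The cause of the other changes was not tested. The median of the 10 genes stayed 0.79 to 1.43 above that of all genes under the alternatives run. With a mean FPKM of at least 1 that median left out Ctgf and Tnc.

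Some log2 fold changes turned sign, among them −0.61 for Dusp1 and −0.38 for Alb. The difference of the Cyr61 to Ctgf ratio was 0.34 with a pseudocount of 1 and −0.56 to 0.25 without single rats; the ratios of Thbs2 to Thbs1 and Sparc to Sparcl1 kept their sign. Median scaling gave −0.12 for Fn1, −0.22 for Smoc1, −0.10 for Igfbp3, −0.21 for Nt5e and −0.20 for Smtn. Quantile normalization gave −0.15 for Smoc1, −0.11 for Nt5e, 0.49 for Alb, −0.04 for Itga2b, −0.29 for Nkg7 and −0.25 for Smtn. Without single rats the values were −0.12 to 0.30 for Fn1, −0.16 to 0.09 for Smoc1, −0.07 to 0.12 for Nt5e, −1.63 to 0.18 for Dusp1, −0.15 to 0.92 for Zfp36, −0.28 to 0.39 for Clec4f, −0.27 to 0.75 for Nkg7 and −0.02 to 0.09 for Smtn. Calls of named list genes were lost with quantile normalization for Thbs4, Itga9, F3, Pmepa1, Lum, Vwf, Cd2, Lmod1, Tgfb1 and Fstl1, and with median scaling for these except Thbs4 and Lum. With no filter they were lost for Thbs4, F3, Pmepa1, Lum, Vwf, Cd2, Lmod1 and Fstl1 (adjusted p of 0.0503 for Thbs4 to 0.0857 for Pmepa1). With a pseudocount of 1 they were lost for Thbs4 (log2 fold change 0.71), Itga9 (0.91), F3 (0.65), Pmepa1 (0.72), Vwf (0.85), Cd2 (0.52) and Lmod1 (0.42), and without trend for Vwf. Of 748 values of 54 named list genes under the alternatives, 641 kept direction and side of the limits.

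No paired analysis was made, because the rats were divided at random into the groups and a shared number does not mark a pair. Levels near 0.1 FPKM, as for Tnc and for Postn in the CL group, rest on few reads.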

Other observations

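For each of the 10 genes, the genes with the most similar pattern over the 6 rats were sought among 10527 other genes averaging 1 FPKM or more, by the root-mean-square difference of log2(FPKM + 0.1) after centring each gene on its own mean. For Sparc these were Kirrel, Rcn3 and Rhoc, at differences of 0.058, 0.088 and 0.088. Rcn3 was at 2.06 in CL5, 2.53 in CL6 and 2.34 in CL7, against 3.60 in FL2, 8.50 in FL5 and 7.61 FPKM in FL12. For Postn and for Spp1 the nearest gene was Col1a1, at 0.209 and 0.571, and Postn was next nearest to Ncam1 (0.428) and LOC100361492 (0.534). Mmp12 (0.794) and Trem2 (0.833) followed for Spp1, and Mmp12 was at 0.02, 0.19 and 0.13 FPKM in the CL rats and at 4.02, 24.5 and 12.8 FPKM in the FL rats. 

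For Thbs2 the nearest genes were Cd37 (0.125), Impdh1 (0.132) and Col5a1 (0.146), and for Thbs1 Acot4 (0.107), Fabp5 (0.116) and Toe1 (0.121). Those of Sparcl1 were Smc4 (0.115), Plekhg2 (0.125) and Hist1h2bb (0.125). For Tnc they were Tk1 (0.166), Kif20a (0.18) and Ckap4 (0.246), and Tk1 was at 2.74, 3.97 and 2.99 in the CL rats, against 3.44 in FL2, 20.02 in FL5 and 11.9 FPKM in FL12, with FL2 again inside the range of the CL rats. Ctgf was nearest to Ogn (0.142), Naaa (0.151) and Chst9 (0.161), and Cyr61 to Hspb1 (0.162), Evc (0.197) and SCARNA13 (0.202). Hspb1 was at 13.8 FPKM in FL5 and at 5.89 and 6.42 FPKM in FL2 and FL12.

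Fn1 was nearest to F10 (0.084), Hgfac (0.085) and Itih4 (0.095). Itih4 was at 910 in CL5, 859 in CL6 and 866 in CL7, against 1508 in FL2, 713 in FL5 and 934 FPKM in FL12, so that FL2 was the highest and FL5 the lowest of the 6 rats, as for Fn1. Likeness over 6 rats in 2 groups is given as a description, since genes that differ between the groups in the same direction are alike in part through that. Some of the genes compared averaged 1 FPKM or more only through the FL rats. Among them were Kirrel, Cd37, Ncam1, LOC100361492, Mmp12 and Trem2, each below 1 FPKM in every CL rat. Their place near genes that rose is thus no support for a link.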
